A study of Mus musculus with 15 samples.

Results

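The genes described here are 10 receptor chains through which myeloid progenitors sense cytokines. They were taken by symbol from a fixed list: Csf2ra, Csf2rb and Csf2rb2 (chains for GM-CSF, IL-3 and IL-5), Csf3r (G-CSF), Il3ra (IL-3), Il6ra (IL-6), Il5ra (IL-5), Il4ra (IL-4), Il1rl1 (IL-33) and Il18r1 (IL-18). All 10 were among the 23337 gene symbols counted, and all 10 were among the 15181 that passed the filter on low counts. RNA came from mouse bone marrow progenitors sorted as lineage-negative, Sca1-negative, CD117-positive and CD34-positive cells. Those with low CD16/32 were called common myeloid progenitors (CMP) and those with high CD16/32 granulocyte-monocyte progenitors (GMP). The labels give no treatment for any library. The groups were wild type (WT) and Trappc1 knockout (KO) CMP, with 4 libraries each, WT GMP with 4, and KO GMP with 3, numbered 1, 3 and 4. The sources used here do not give strain, age, sex, or the promoter or cell type in which Trappc1 was deleted, so whether the WT animals share an allele with the KO animals is not known. No label ties a library to an animal, so the p-values below reflect variation among libraries and part of it may be technical.

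Cytokine receptors of this family pair a ligand-binding alpha chain with a shared signalling chain. Csf2ra, Il3ra and Il5ra bind GM-CSF, IL-3 and IL-5 and share the common beta chain, encoded by Csf2rb. Mice carry an added beta chain gene, Csf2rb2, whose product works with the IL-3 receptor alone. Csf3r pairs with itself and drives neutrophil production, Il6ra signals through Il6st (gp130), and Il4ra through Il2rg or Il13ra1. These chains lack enzyme activity and act through JAK kinases and STAT factors, with Cish and the Socs proteins as feedback inhibitors. Il1rl1 (ST2) and Il18r1 belong to another family, pair with Il1rap and Il18rap, and signal through Myd88 and the Irak kinases; mast cells and basophils are known for Il1rl1, eosinophils for Il5ra.

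The beta chain genes are neighbours on chromosome 15 and close copies, which bears on how far their counts can be separated. Csf2rb lies at 78325752 to 78353847 on the plus strand and Csf2rb2 at 78282507 to 78305721 on the minus strand (GRCm38, GENCODE M21). Over 2628 aligned coding positions they were 95.2% identical, and 26.2% of all 50-base windows of the Csf2rb coding sequence, but 6.5% of all 150-base windows, also occurred exactly in Csf2rb2. The sources used here do not say how reads that match both were counted, so the split between these genes is uncertain. The least alike stretch of 90 bases is shown because it tells the copies apart; capitals mark the 16 positions that differ (coding positions 308 to 397 of Csf2rb and 311 to 400 of Csf2rb2).
Csf2rb: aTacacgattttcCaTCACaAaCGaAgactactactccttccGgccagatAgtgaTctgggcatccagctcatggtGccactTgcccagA
Csf2rb2: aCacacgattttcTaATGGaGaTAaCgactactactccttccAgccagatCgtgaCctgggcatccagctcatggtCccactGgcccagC

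Promoter windows are shown for the GM-CSF and G-CSF receptor genes that were higher in GMP, and for Il1rl1, whose level set 1 library apart. They hold the 250 bases before the start site in RefSeq (GRCm38.p6), where 9 of the 10 members had a window. Capitals mark GATA motifs (AGATAA, its variant TGATAA, and likewise AGATAG or the variant TGATAG), C/EBP motifs (TTGCNNAA) and PU.1 motifs (GAGGAA), each searched on both strands. Of 32851 windows of this length over all genes, 26.5% held a GATA motif, 9.56% a C/EBP motif and 23.3% a PU.1 motif. Csf2ra itself spans 61223957 to 61228429 of chromosome 19 and Csf3r 126024550 to 126044440 of chromosome 4. The Csf2ra window is chr19:61228419-61228668 (minus strand) and holds 2 adjoining PU.1 motifs. The Csf3r window is chr4:126024409-126024658 (plus strand) and holds 1 PU.1 motif. Both windows reach into the gene spans above (GENCODE M21), whose starts lie upstream of those in RefSeq. The Csf3r motif lies inside its span, and the Csf2ra motifs cross or lie just inside the start of theirs. PU.1 motifs also lie in the windows of Csf2rb2 and Il6ra, which had no called step over all libraries. A window of Il18r1, which was lower in GMP, holds one too. The window of Il5ra, which was higher in GMP, holds 0 PU.1 motifs and 1 GATA motif.
Csf2ra: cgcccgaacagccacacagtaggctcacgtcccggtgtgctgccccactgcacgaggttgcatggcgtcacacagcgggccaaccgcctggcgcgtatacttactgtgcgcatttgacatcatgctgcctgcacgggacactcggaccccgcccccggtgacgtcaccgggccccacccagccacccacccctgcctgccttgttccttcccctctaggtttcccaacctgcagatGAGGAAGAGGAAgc
Csf3r: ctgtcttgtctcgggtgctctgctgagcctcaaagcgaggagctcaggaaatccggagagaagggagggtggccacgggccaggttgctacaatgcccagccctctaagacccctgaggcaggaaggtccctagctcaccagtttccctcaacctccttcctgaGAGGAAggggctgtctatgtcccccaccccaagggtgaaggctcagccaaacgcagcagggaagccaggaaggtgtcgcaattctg

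Il1rl1 and Il18r1 are neighbours on the plus strand of chromosome 1, at 40429570 to 40465415 and 40465552 to 40500854 (GRCm38). Il1rl1 has 2 start sites in the RefSeq table. The upstream window is chr1:40429320-40429569 and holds 5 GATA motifs and 1 C/EBP motif; 0.0426% of all windows held 5 or more GATA motifs. The downstream window is chr1:40439379-40439628 and holds 1 GATA motif. These matches are letters in a sequence and are not sites of binding, and the motifs were chosen with the levels known.
Il1rl1 upstream start: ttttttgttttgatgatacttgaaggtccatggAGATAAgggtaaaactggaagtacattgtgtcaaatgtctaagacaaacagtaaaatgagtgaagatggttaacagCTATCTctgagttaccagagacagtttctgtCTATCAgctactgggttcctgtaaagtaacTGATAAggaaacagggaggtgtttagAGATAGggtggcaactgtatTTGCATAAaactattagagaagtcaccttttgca
Il1rl1 downstream start: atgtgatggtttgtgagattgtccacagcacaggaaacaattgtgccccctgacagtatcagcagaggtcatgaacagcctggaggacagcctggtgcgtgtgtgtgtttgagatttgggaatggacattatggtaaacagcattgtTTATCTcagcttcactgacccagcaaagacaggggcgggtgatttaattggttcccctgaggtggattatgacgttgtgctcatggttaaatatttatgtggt

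Several facts about the libraries touch the values below. Library totals ran from 61.3 to 120.3 M units. That would be about 15.3 to 30.1 M fragments if 1 fragment is taken as about 4 units. Trappc1 did not overlap between genotypes within a cell type, at 3.83 to 13.4 counts scaled to library size (CPM) against 18.4 to 26.2 in CMP and at 6.09 to 25.2 against 30.9 to 41.3 in GMP, KO being lower. Which exons were deleted is not given. KO CMP libraries 1 and 2 and KO GMP library 1 stood apart from the rest: they held Xist at 109, 204 and 123 CPM, against at most 2.17 elsewhere, and Trappc1 at 3.83 to 6.09. The CD16/32 gate was visible as Fcgr3, at 12.9 to 115 CPM in the 8 CMP libraries and 239 to 315 in 6 GMP libraries, but KO GMP library 1 held 125. Libraries numbered 1 and 2 also parted from those numbered 3 and 4 among WT libraries alone, so KO effects are given over all libraries and within each set of numbers; the labels do not call these sets batches.

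Per length of exon, G-CSF and GM-CSF receptor chains were the most abundant members and IL-5 and IL-18 receptor chains the least. In WT CMP the order of mean CPM per kb was Csf3r, Csf2ra, Il3ra, Csf2rb, Il4ra, Il6ra, Csf2rb2, Il1rl1, Il18r1 and Il5ra. KO CMP had the same order. In WT CMP the libraries of Il3ra and Csf2rb overlapped, as did those of Csf2rb and Il4ra. So did those of Il6ra and Csf2rb2, and of Il1rl1 and Il18r1. The ranges over libraries therefore do not separate these neighbours. In KO CMP the same pairs overlapped, and so did Csf2ra and Il3ra. In WT GMP the order was Csf2ra, Csf3r, Csf2rb, Il3ra, Il4ra, Il6ra, Csf2rb2, Il1rl1, Il5ra and Il18r1, and KO GMP again had the same order. There the libraries of Csf2ra and Csf3r overlapped, as did those of Csf2rb and Il3ra and of Il1rl1 and Il5ra. In KO GMP the overlapping neighbours were Csf2ra and Csf3r, Il6ra and Csf2rb2, and Csf2rb2 and Il1rl1. Such ranges do not compare genes within a library. Within every library, Csf2ra lay above Il3ra in KO CMP and above Csf3r in WT GMP. Csf2rb2 likewise lay above Il1rl1 in KO GMP, and Il1rl1 at or above Il18r1 in WT CMP. With the longest transcript in place of all exons, Csf2rb came before Il3ra in both CMP groups.

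**Figure D1:**
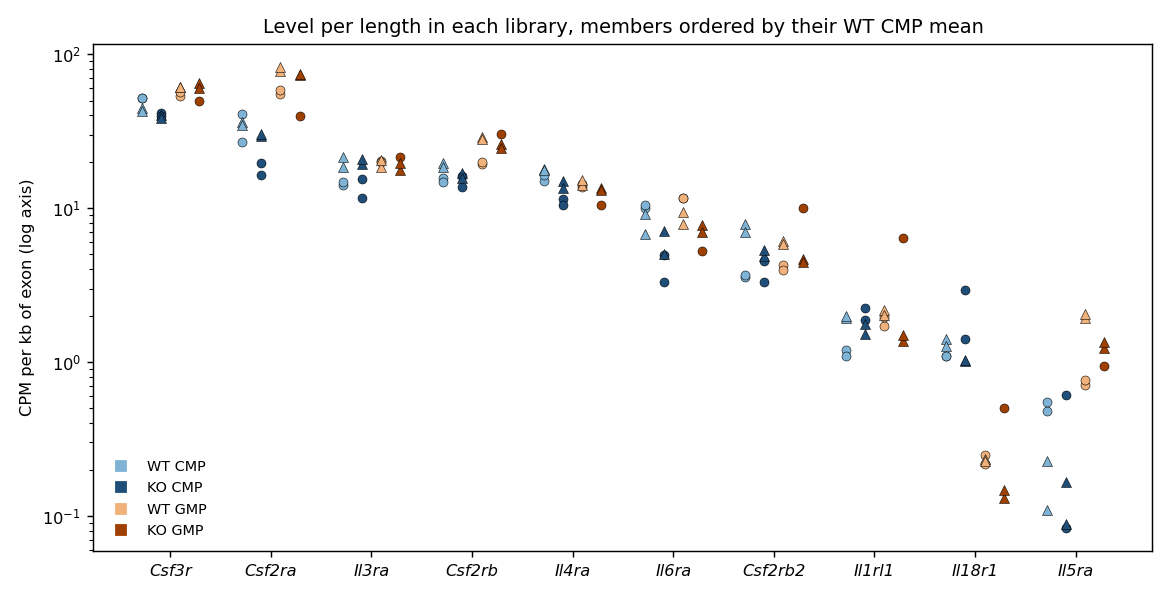
CPM per kb of exon (log axis) of each member in each of the 15 libraries; colours are the 4 groups, circles are library numbers 1 and 2, triangles numbers 3 and 4. Csf3r and Csf2ra lie highest in every group, and Il18r1 and Il5ra exchange the lowest place between CMP and GMP.

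Chains of the GM-CSF and IL-3 receptors were compared with each other as ratios of CPM per kb. Csf2ra and Csf2rb join in 1 complex. The other ratios set beta chain against beta chain and alpha chain against alpha chain. Csf2ra exceeded Csf2rb by 1.85 to 2.61 times in the WT CMP libraries and by 2.69 to 2.96 times in the WT GMP libraries, with no overlap. In KO CMP this ratio ran from 1.01 to 1.92 and in KO GMP from 1.31 to 3.03. Csf2rb2 stood at 0.199 to 0.219 of Csf2rb in WT GMP and at 0.229 to 0.399 in WT CMP. Il3ra stood at 0.237 to 0.366 of Csf2ra in WT GMP, and at 0.35 to 0.62 in WT CMP, so these ranges overlapped. These ratios are descriptions with no test. They depend on the length used. By the longest transcript, Csf2ra lay below Csf2rb in KO CMP library 1 (20.5 against 24.0 CPM per kb) and above it in every other library. The split of counts between Csf2rb and Csf2rb2 is also uncertain.

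From CMP to GMP, receptor chains for GM-CSF, G-CSF and IL-5 rose and the IL-18 receptor chain fell, in WT and in KO. The comparison sets the sorted populations against each other within a genotype. In WT, 4 of 10 members were called higher in GMP and 1 lower, at an adjusted p under 0.05, against 11.3% of all tested genes called higher and 14.2% lower. In KO the same counts, 4 and 1, stood against 10.7% and 10.5%. The median log2 change of the members was 0.24 in WT and 0.52 in KO, and that of all tested genes was -0.02 in each. In bulk RNA, fewer cells of a type and less RNA per cell cannot be told apart here or below.

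**Figure D2:**
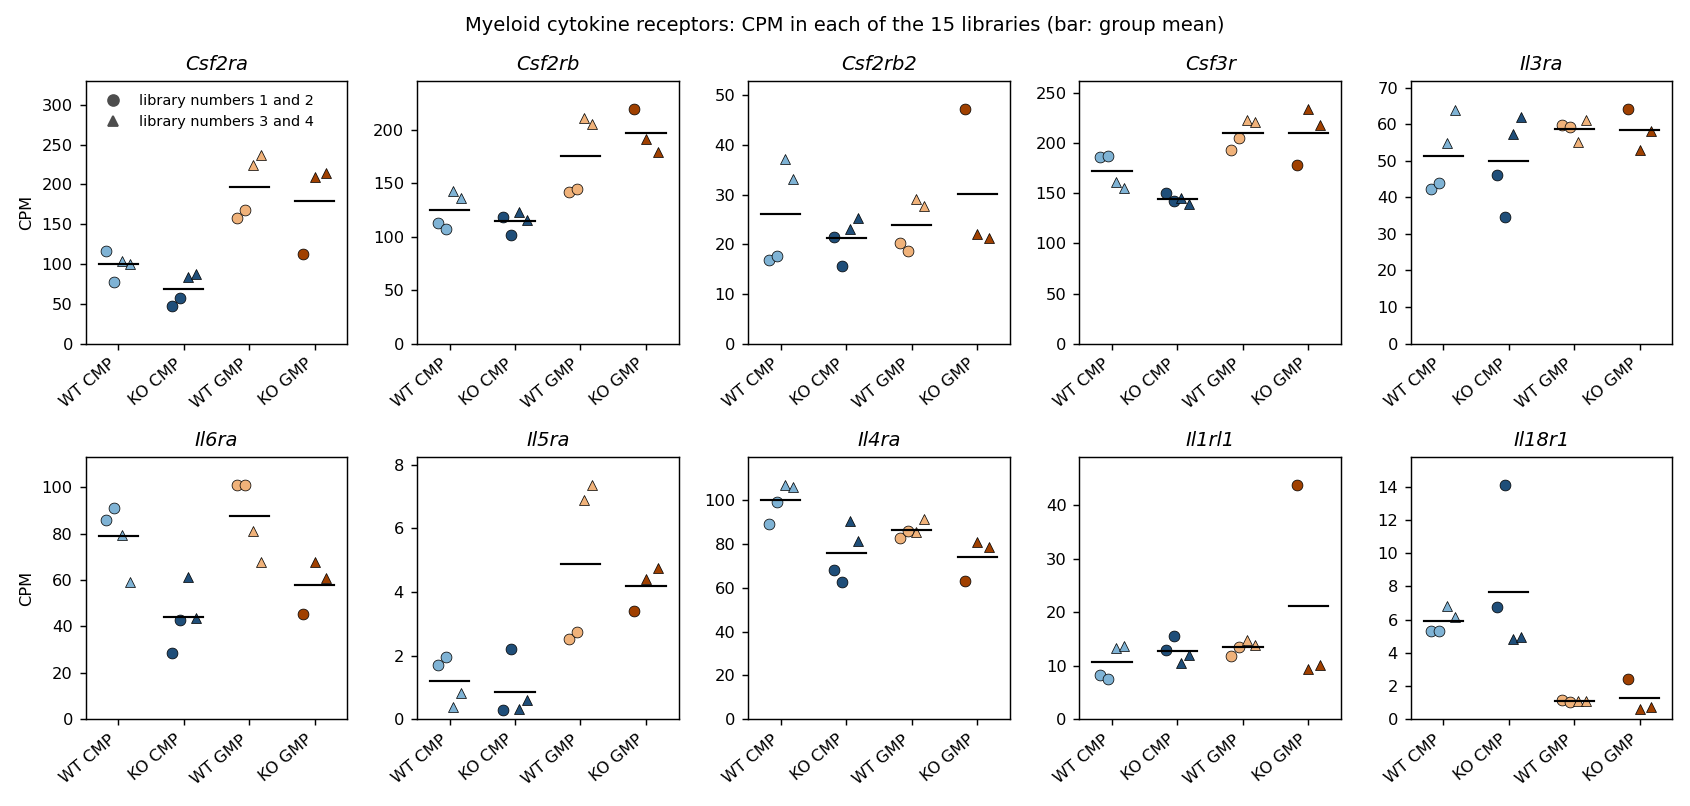
CPM of each member in each library; circles are library numbers 1 and 2, triangles numbers 3 and 4, and black bars are group means. Csf2ra is higher in the GMP groups and Il18r1 lower, and KO GMP library 1 lies alone at the top for Il1rl1 (43.8 CPM) and Csf2rb2 (47.2 CPM).

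Csf2ra, the alpha chain for GM-CSF, measured 117, 77.8, 104 and 99.8 CPM in WT CMP libraries 1 to 4 and 158, 168, 224 and 237 CPM in WT GMP libraries 1 to 4. The groups did not overlap, and GMP libraries 3 and 4 were the highest. Of all tested genes, 14.8% were higher in every WT GMP than in every WT CMP library and 17% lower, and in KO 13.4% and 14.5%, so a step without overlap was common in this comparison. Its log2 change was 0.98 ± 0.24 (SE; adjusted p = 0.00834), a fold of 1.98. In KO it measured 46.7, 56.7, 84.1 and 87.2 CPM in CMP libraries 1 to 4 and 113, 209 and 214 CPM in GMP libraries 1, 3 and 4, again without overlap. The KO step was 1.38 ± 0.25 (adjusted p = 0.00184). Of the members, Csf2ra and Il18r1 kept their calls in both genotypes when any single library was left out, and within each set of numbers.

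Csf2rb, the common beta chain, measured 113, 107, 143 and 136 CPM in WT CMP and 142, 144, 211 and 205 CPM in WT GMP. The groups touched, since WT CMP library 3 lay above WT GMP library 1, while within each set of numbers the GMP libraries were higher. Its WT step was 0.49 ± 0.14 (adjusted p = 0.0208) and its KO step 0.78 ± 0.15 (adjusted p = 0.00262). In KO it measured 118, 101, 123 and 115 CPM in CMP and 219, 191 and 179 CPM in GMP. The WT call was lost without WT CMP library 1 (adjusted p = 0.0541), WT CMP library 2 (0.0523), WT GMP library 3 (0.0843) or WT GMP library 4 (0.0811), and when Csf2rb and Csf2rb2 were summed (log2 0.40, adjusted p = 0.0791).

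Csf2rb2, the beta chain that works with the IL-3 receptor alone, had no such step. It measured 16.9, 17.6, 37.1 and 33.1 CPM in WT CMP and 20.3, 18.7, 29.1 and 27.7 CPM in WT GMP. In both cell types libraries 3 and 4 were the higher pair. The WT step was -0.13 ± 0.30 (adjusted p = 0.792), and the KO step 0.50 ± 0.32 (adjusted p = 0.316). Within KO numbers 1 and 2, where GMP has 1 library, it was 1.35 ± 0.15 (adjusted p = 9.15e-05).

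Csf3r, the G-CSF receptor of the neutrophil line, measured 186, 187, 161 and 155 CPM in WT CMP and 193, 205, 223 and 221 CPM in WT GMP. The groups did not overlap, but libraries 1 and 2 of the cell types lay close together. Its WT step was 0.29 ± 0.09 (adjusted p = 0.0350), a fold of 1.22, and its KO step 0.54 ± 0.10 (adjusted p = 0.00182). In KO it measured 150, 142, 145 and 139 CPM in CMP and 178, 234 and 218 CPM in GMP. Within WT numbers 1 and 2 the step was 0.09 ± 0.07 (adjusted p = 0.367), and within numbers 3 and 4 it was 0.49 ± 0.07 (adjusted p = 0.000121). Without the filter on low counts the WT value was 0.27 (adjusted p = 0.0517). The WT call was also lost without KO CMP library 3 (adjusted p = 0.0533), KO GMP library 4 (0.0523), WT CMP library 3 (0.103) or 4 (0.112), or WT GMP library 2 (0.0558), 3 (0.106) or 4 (0.103). Markers of primary granules, proteins made in early neutrophil precursors, summed to 24967 and 27486 CPM in WT CMP libraries 1 and 2 and to 13735 and 14810 in libraries 3 and 4; the part of this difference in the Csf3r levels was not tested.

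Il5ra, the IL-5 receptor of the eosinophil line, rose by the largest factor from a low level. It measured 1.71, 1.95, 0.393 and 0.813 CPM in WT CMP and 2.53, 2.74, 6.88 and 7.37 CPM in WT GMP. Libraries 3 and 4 were the lowest in CMP and the highest in GMP, and the groups did not overlap. The WT step was 2.01 ± 0.65 (adjusted p = 0.0365) and the KO step 2.30 ± 0.69 (adjusted p = 0.0289), or 3.36 without KO CMP library 2 (adjusted p = 0.0034). In KO it measured 0.299, 2.20, 0.315 and 0.599 CPM in CMP and 3.39, 4.40 and 4.77 CPM in GMP. These levels rest on 22 to 727 units per library, which is few fragments in CMP at the assumed unit.

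The WT step of Il5ra was 0.52 ± 0.61 within numbers 1 and 2 (adjusted p = 0.583) and 3.57 ± 0.67 within numbers 3 and 4 (adjusted p = 0.00114). In KO it was 1.44 ± 0.72 (adjusted p = 0.219) and 3.31 ± 0.67 (adjusted p = 0.00191). The WT call was lost without WT CMP library 3 (adjusted p = 0.100) or 4 (0.0920) or WT GMP library 3 (0.0904) or 4 (0.0973). The KO call was lost without KO CMP library 1 (adjusted p = 0.0705), 3 (0.0688) or 4 (0.0660) or KO GMP library 3 (0.0777) or 4 (0.0835). Eosinophil markers, taken as a sum, were also higher in every GMP than in every CMP library. Over 9 genes they summed to 1663, 1643, 5770 and 7517 CPM in WT GMP libraries 1 to 4, to 624, 3891 and 3852 in KO GMP libraries 1, 3 and 4, to 378, 343, 48.2 and 53.6 in WT CMP, and to 25.6 to 54.0 in KO CMP. The order within a cell type was not the same: KO GMP library 1 held more Il5ra than WT GMP libraries 1 and 2 at a lower sum of these markers, and KO CMP library 2 held the most Il5ra of CMP at a marker sum of 54.0. The granule protein genes Prg2 and Epx led the list, at 5065 and 1523 CPM in WT GMP library 4. Siglec5 and Ccr3, also on the list, overlapped between CMP and GMP libraries. The part of these markers in the Il5ra levels was not tested.

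Il18r1, the binding chain for IL-18, was the member that fell. It measured 5.30, 5.31, 6.80 and 6.13 CPM in WT CMP and 1.19, 1.05, 1.13 and 1.09 CPM in WT GMP, so that every GMP library lay far below every CMP library. The WT step was -2.40 ± 0.43 (adjusted p = 0.00140), a fold of 5.28. In KO CMP it measured 6.78, 14.1, 4.86 and 4.96 CPM and in KO GMP 2.42, 0.632 and 0.711 CPM. Libraries 2 of KO CMP and 1 of KO GMP were the highest of their cell type. The KO step was -2.61 ± 0.48 (adjusted p = 0.00189), and -3.51 without KO GMP library 1. Markers of stem and multipotent progenitors, 12 genes, followed the same order of groups, with sums of 1111 to 1643 CPM in the CMP libraries, 311 to 436 in 6 GMP libraries and 864 in KO GMP library 1. Their part in the Il18r1 levels was not tested.

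**Figure D3:**
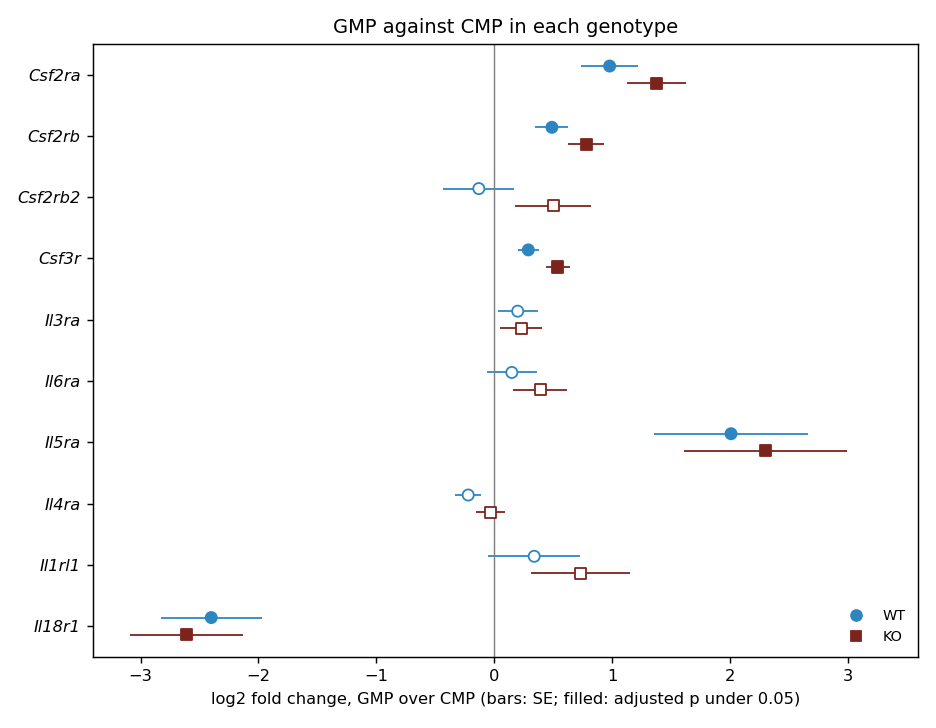
Log2 fold change from CMP to GMP of each member, circles for WT and squares for KO, with SE as bars; filled symbols have an adjusted p under 0.05. Csf2ra, Csf2rb, Csf3r and Il5ra are filled on the right and Il18r1 on the left in both genotypes.

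The other 4 members showed no called step over all libraries. Il3ra, the alpha chain for IL-3, measured 42.2, 43.8, 54.9 and 64.0 CPM in WT CMP and 59.7, 59.2, 55.0 and 61.2 in WT GMP. Its WT step was 0.20 ± 0.17 (adjusted p = 0.413), and within numbers 1 and 2 it was 0.47 ± 0.12 (adjusted p = 0.0164) against -0.03 ± 0.12 within numbers 3 and 4. Il6ra, the binding chain for IL-6, had a WT step of 0.15 ± 0.21 (adjusted p = 0.643). Il4ra, the binding chain for IL-4, had one of -0.22 ± 0.11 (adjusted p = 0.182). It was called within numbers 3 and 4 (-0.27, adjusted p = 0.0196) and without the 3 libraries that stood apart (-0.23, adjusted p = 0.0317). Il1rl1, the IL-33 receptor, measured 8.30, 7.61, 13.3 and 13.7 CPM in WT CMP and 11.9, 13.5, 14.9 and 13.9 in WT GMP. Its WT step was 0.34 ± 0.39 (adjusted p = 0.568), and within numbers 1 and 2 it was 0.67 ± 0.13 (adjusted p = 0.00210). In KO the steps of Il3ra, Il6ra, Il4ra and Il1rl1 were 0.23 ± 0.18, 0.39 ± 0.23, -0.03 ± 0.12 and 0.73 ± 0.42, with no call. KO libraries of Il3ra measured 46.1, 34.5, 57.3 and 61.9 CPM in CMP and 64.1, 52.8 and 58.2 CPM in GMP. Within KO numbers 1 and 2, Il3ra (0.67 ± 0.15, adjusted p = 0.00901) and Il1rl1 (1.62 ± 0.14, adjusted p = 1.3e-05) were called higher in GMP, where KO GMP has 1 library.

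Comparing KO with WT in CMP, the main contrast of the study, no member passed the threshold in edgeR over all libraries, and neither did any other gene (0% of 15181 tested). At an unadjusted p under 0.05, 4 of 10 members were lower in KO, against 6.92% of all genes lower: Il6ra, Il4ra, Csf3r and Csf2ra. DESeq2 called 2 of them lower, Il6ra and Il4ra, against 1.99% of the genes for which it gave an adjusted p. The median log2 change of the members was -0.28, and 8 of 10 were negative, against a median of 0.01 and 48.6% negative over all tested genes.

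Il6ra measured 86.0, 91.1, 79.5 and 59.0 CPM in WT CMP and 28.7, 42.7, 61.4 and 43.8 CPM in KO CMP. KO libraries 1 and 2 were the lowest, and the groups met at KO library 3 and WT library 4. In each of the 4 pairs with the same number the KO library was the lower, which also held for Il4ra, Csf3r and Csf2ra. Pairing by number is not established, and the share of all genes for which this held was not computed. The log2 change was -0.84 ± 0.21 (edgeR adjusted p = 0.2), and DESeq2 gave -0.83 (adjusted p = 0.0101). Il6st, the signalling chain that Il6ra uses, measured 102 ± 27.2 CPM (SD, n = 4) in WT CMP and 52.6 ± 21.2 CPM (n = 4) in KO CMP, a log2 change of -0.96 ± 0.27 (edgeR adjusted p = 0.213).

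Il4ra measured 89.2, 99.0, 107 and 106 CPM in WT CMP and 68.2, 62.8, 90.6 and 81.6 CPM in KO CMP. The groups overlapped only where KO library 3 lay above WT library 1. The log2 change was -0.41 ± 0.11 (edgeR adjusted p = 0.212), and DESeq2 gave -0.40 (adjusted p = 0.0343). Csf3r was the member whose KO CMP libraries, at 139 to 150 CPM, all lay below the WT CMP libraries, at 155 to 187 CPM. Of all tested genes, 3.6% were lower in every KO than in every WT CMP library. Its log2 change was -0.26 ± 0.09 (edgeR adjusted p = 0.294). Csf2ra changed by -0.54 ± 0.23 on the log2 scale (edgeR adjusted p = 0.397). The remaining values were -0.13 ± 0.14 for Csf2rb, -0.29 ± 0.30 for Csf2rb2, -0.04 ± 0.17 for Il3ra, -0.51 ± 0.64 for Il5ra (-1.57 without KO CMP library 2), 0.25 ± 0.39 for Il1rl1 and 0.38 ± 0.40 for Il18r1.

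In GMP, KO against WT likewise gave no call among the members or among all genes (0%). At an unadjusted p under 0.05, 1 member was lower, Il6ra, against 2% of all genes, and DESeq2 called none of the 10. Il6ra measured 101, 101, 81.3 and 67.6 CPM in WT GMP and 45.2, 67.6 and 60.7 CPM in KO GMP, with KO library 1 the lowest. Before rounding the groups did not overlap, as for 3.7% of all tested genes lower in every KO GMP library. Its log2 change was -0.60 ± 0.23 (edgeR adjusted p = 0.698), and -0.22 ± 0.20 within numbers 3 and 4. Il4ra measured 82.7 to 91.5 CPM in the WT GMP libraries and 63.0, 80.8 and 78.8 CPM in KO GMP, also without overlap, with a log2 change of -0.22 ± 0.12 (edgeR adjusted p = 0.831). Values of the other members were -0.14 ± 0.25 for Csf2ra, 0.16 ± 0.15 for Csf2rb, 0.34 ± 0.33 for Csf2rb2, -0.01 ± 0.18 for Il3ra, -0.22 ± 0.68 for Il5ra, 0.64 ± 0.42 for Il1rl1 and 0.17 ± 0.44 for Il18r1. That of Csf3r rounded to 0.00 ± 0.10. The difference between the KO effects in CMP and GMP was called for 0 members and 0% of all genes by edgeR and for 0 members by DESeq2; at an unadjusted p under 0.05 it held 0 members, against 2.97% of all genes.

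Within library numbers 1 and 2, Xist measured 109 and 204 CPM in the KO CMP libraries against 2.17 and 0.833 CPM in WT CMP. A KO effect and what else sets these KO libraries apart cannot be told apart there. In this set 4 members fell and 2 rose in KO CMP (edgeR, n = 2 in each genotype). Over all genes 10.2% were called lower and 8.23% higher. Those that fell were Il6ra (-1.31 ± 0.20, adjusted p = 0.000579), Csf2ra (-0.91 ± 0.15, adjusted p = 0.000914), Il4ra (-0.52 ± 0.08, adjusted p = 0.000676) and Csf3r (-0.35 ± 0.07, adjusted p = 0.00330). Il1rl1 rose, from 8.30 and 7.61 CPM to 13 and 15.5 CPM (0.84 ± 0.13, adjusted p = 0.000497). Il18r1 rose from 5.30 and 5.31 CPM to 6.78 and 14.1 CPM (0.98 ± 0.28, adjusted p = 0.0272), mostly through KO library 2. Without KO CMP library 2 its value was 0.35 (adjusted p = 0.302), and the call was also lost without WT CMP library 1 or 2 (adjusted p = 0.119 each). Primary granule markers summed to 6684 and 7271 CPM in these KO libraries and to 13735 to 27486 in the other CMP libraries. Monocyte and macrophage markers, 11 genes, summed to 569 and 829 against 1971 to 2772, and megakaryocyte markers to 991 and 706 against 445 to 547. Stromal and endothelial markers summed to 342 and 368 against 165 to 225, with Cxcl12 at 91 and 127 against at most 15.1 CPM. Endothelial genes of that list were not raised. Pecam1 measured 134 and 113 CPM against 109 to 154, Kdr 1.43 and 1.56 against 0.791 to 1.75, and Cdh5 0.0544 and 0. The part of these lists in the members' values was not tested.

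Within library numbers 3 and 4, Trappc1 itself changed by -0.80 ± 0.19 in CMP, against -2.25 ± 0.21 in numbers 1 and 2. In numbers 3 and 4, 0 members were called in CMP by edgeR, and 1 gene of all tested (0.00659%). At an unadjusted p under 0.05, 4 members were lower in KO, against 5.21% of all genes: Csf2rb2 (-0.54 ± 0.13, adjusted p = 0.262), Il4ra (-0.31 ± 0.08, adjusted p = 0.293), Csf2rb (-0.22 ± 0.08, adjusted p = 0.366) and Csf3r (-0.16 ± 0.07, adjusted p = 0.413). DESeq2 called 2 lower, Csf2rb2 and Il4ra, against 0.483% of the genes for which it gave an adjusted p. Il6ra had -0.40 ± 0.20 (edgeR adjusted p = 0.462) in numbers 3 and 4, against -1.31 ± 0.20 in numbers 1 and 2. Csf2ra had -0.25 ± 0.15 (edgeR adjusted p = 0.536), against -0.91 ± 0.15. Il1rl1 measured 10.5 and 12.1 CPM in KO against 13.3 and 13.7 CPM in WT (-0.25 ± 0.12, adjusted p = 0.460). The KO effect on Il1rl1 differed between the sets by 1.09 ± 0.18 (numbers 1 and 2 minus 3 and 4, adjusted p = 0.00208). It was the single member called of the 10 by edgeR, against 7.64% of all genes. Il6ra differed by -0.91 ± 0.28 (edgeR adjusted p = 0.0719) and Csf2ra by -0.66 ± 0.21 (0.0805). DESeq2 called both, and it called Csf2rb2, Il1rl1 and Il18r1 in the other direction.

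In GMP numbers 1 and 2 the KO side is library 1 alone, which is assumed to vary like the other groups. The adjusted p-values there set that library against 2 WT libraries, and a KO effect and what else sets it apart cannot be told apart. There 4 members were called higher, against 11% of all genes, and 2 lower, against 9% of all genes. Il1rl1 measured 43.8 CPM in that library and 11.9 and 13.5 CPM in WT GMP libraries 1 and 2 (1.79 ± 0.14, adjusted p = 6.32e-06), a fold of 3.45. Csf2rb2 measured 47.2 CPM against 20.3 and 18.7 (1.28 ± 0.15, adjusted p = 0.000112). Csf2rb measured 219 CPM against 142 and 144 (0.62 ± 0.10, adjusted p = 0.000934), and Il18r1 2.42 CPM against 1.19 and 1.05 (1.11 ± 0.35, adjusted p = 0.0412). In all 4 the KO library was above both WT libraries. Its monocyte and macrophage markers summed to 1225 CPM, against 4206 to 5538 in the other GMP libraries, and their part was not tested.

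The lower members were Il6ra (-1.16 ± 0.25, adjusted p = 0.00674) and Il4ra (-0.42 ± 0.10, adjusted p = 0.0121); Csf2ra had -0.53 ± 0.18 (edgeR adjusted p = 0.0624) and was called by DESeq2. The Il4ra call was lost without WT GMP library 1 (-0.41, adjusted p = 0.0517) or 2 (-0.39, adjusted p = 0.0511). The Il18r1 call was lost without WT GMP library 1 (1.24, adjusted p = 0.0872) or 2 (1.02, adjusted p = 0.138), and narrowly without KO CMP library 3 (adjusted p = 0.0506) or 4 (0.0506) or WT CMP library 1 (0.0560), 2 (0.0559) or 3 (0.0508).

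In GMP numbers 3 and 4, Trappc1 itself measured 24.1 and 25.2 CPM in KO against 30.9 and 33.3 CPM in WT. Its log2 change was -0.38 ± 0.19 (edgeR unadjusted p = 0.0695), against -2.69 in numbers 1 and 2. In numbers 3 and 4, 0 members were called by edgeR, against 2 genes of all tested (0.0132%). At an unadjusted p under 0.05, 3 were lower in KO, against 3.12% of all genes: Il1rl1 (-0.56 ± 0.12, adjusted p = 0.292), Il18r1 (-0.72 ± 0.31, adjusted p = 0.884) and Csf2rb2 (-0.39 ± 0.13, adjusted p = 0.737). DESeq2 called 1 of them, Il1rl1, against 0.191% of all genes. These 3 values were on opposite sides of 0 in the sets of numbers. The KO effect differed between the sets for 4 members, again through KO GMP library 1 alone for numbers 1 and 2, against 10.6% of all genes: Il1rl1 by 2.35 ± 0.19 (adjusted p = 2.39e-05), Csf2rb2 by 1.67 ± 0.20 (adjusted p = 0.000323), Csf2rb by 0.78 ± 0.13 (adjusted p = 0.00217) and Il18r1 by 1.84 ± 0.46 (adjusted p = 0.0249). The last was lost without KO GMP library 3 (adjusted p = 0.0760) or 4 (0.0558) or WT GMP library 2 (0.0680) or 3 (0.0655).

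**Figure D4:**
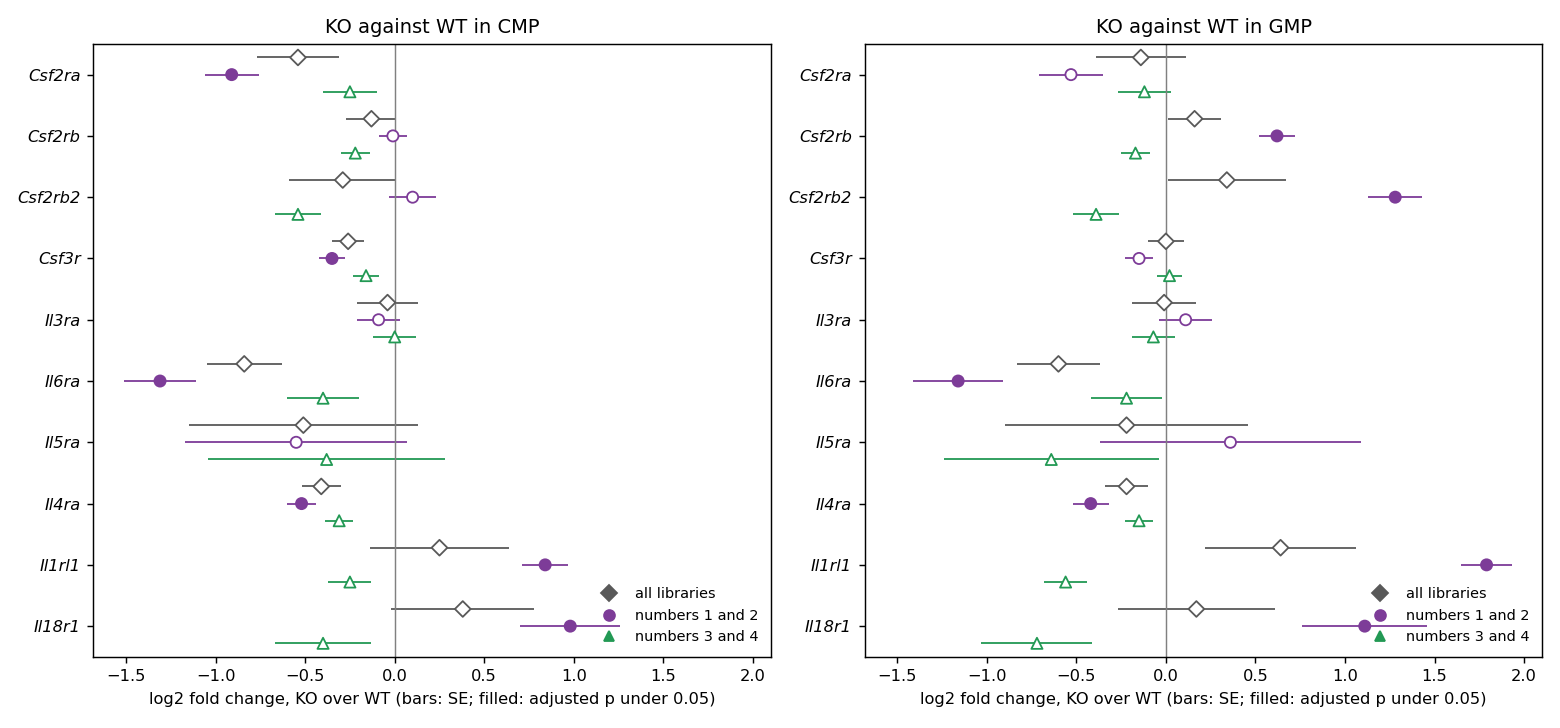
Log2 fold change of KO over WT for each member in CMP (left) and GMP (right), with SE as bars; diamonds are all libraries, circles numbers 1 and 2 and triangles numbers 3 and 4, filled where the adjusted p is under 0.05. Filled symbols occur in numbers 1 and 2 alone, and Il1rl1 and Il18r1 lie right of 0 there and left of 0 in numbers 3 and 4.

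Members also differed between the sets of numbers among WT libraries alone. In WT CMP, 5 of 10 members were called between numbers 1 and 2 and numbers 3 and 4, against 22.9% of all genes. Csf2rb2 (-1.03 ± 0.13, adjusted p = 0.000237), Il1rl1 (-0.76 ± 0.13, adjusted p = 0.00135), Il3ra (-0.47 ± 0.12, adjusted p = 0.0191) and Csf2rb (-0.34 ± 0.08, adjusted p = 0.0129) were lower in numbers 1 and 2, and Csf3r was higher (0.24 ± 0.07, adjusted p = 0.0276). In WT GMP, 2 were called, Csf2rb (-0.54 ± 0.08, adjusted p = 0.00242) and Csf2rb2 (-0.55 ± 0.13, adjusted p = 0.0244), against 8.61% of all genes. The Csf2rb2 call in GMP was lost when any 1 of the 4 WT GMP libraries was left out (adjusted p from 0.0730 to 0.152). In CMP, Csf3r lost its call without WT CMP library 1 (adjusted p = 0.0732), 2 (0.106) or 4 (0.159), Il3ra without 1 (0.0877), 2 (0.0820) or 4 (0.148), and Csf2rb without 2 (0.0973) or 3 (0.0503).

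In KO GMP library 1, several but not all listed genes of mast cells were high beside Il1rl1. Cma1, a mast cell chymase, measured 38 CPM there and at most 2.29 CPM in the other 14 libraries. The tryptase gene Tpsb2 measured 7.87 CPM there, and it was at 0 in 8 of the other libraries and at most 0.290 in the rest. Cpa3, a mast cell carboxypeptidase, measured 369 CPM against 115 to 198 in the other GMP libraries, and Ms4a2, a chain of the IgE receptor, 40.5 against 12.7 to 18.5. Fcer1a, another chain of that receptor, measured 98 CPM against 23.6 to 67.1. Tpsab1, also a tryptase gene, was at 0 in every GMP library. Hdc, also on the list, measured 274 CPM, within the 239 to 280 of the other GMP libraries. The basophil gene Mcpt8 measured 251 CPM there, below WT GMP (274 to 323) and above KO GMP libraries 3 and 4 (181 and 176). Prss34, also of basophils, measured 422 CPM, likewise between WT GMP (605 to 701) and KO GMP libraries 3 and 4 (313 and 299). Summed over the 12 mast cell and basophil markers the library held 1967 CPM, against 1668 to 1816 in WT GMP, 1235 and 1196 in KO GMP libraries 3 and 4, and 532 to 744 in CMP. Fcgr3, at 125 CPM, and Cd34, at 547 CPM against 206 to 326 in the other GMP libraries, also set it apart. The part of these differences in its Il1rl1, Csf2rb2, Csf2rb and Il18r1 levels was not tested. In KO CMP libraries 1 and 2, where Il1rl1 was called higher, Cma1 was at 0.0544 and 0.496 CPM.

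**Figure D5:**
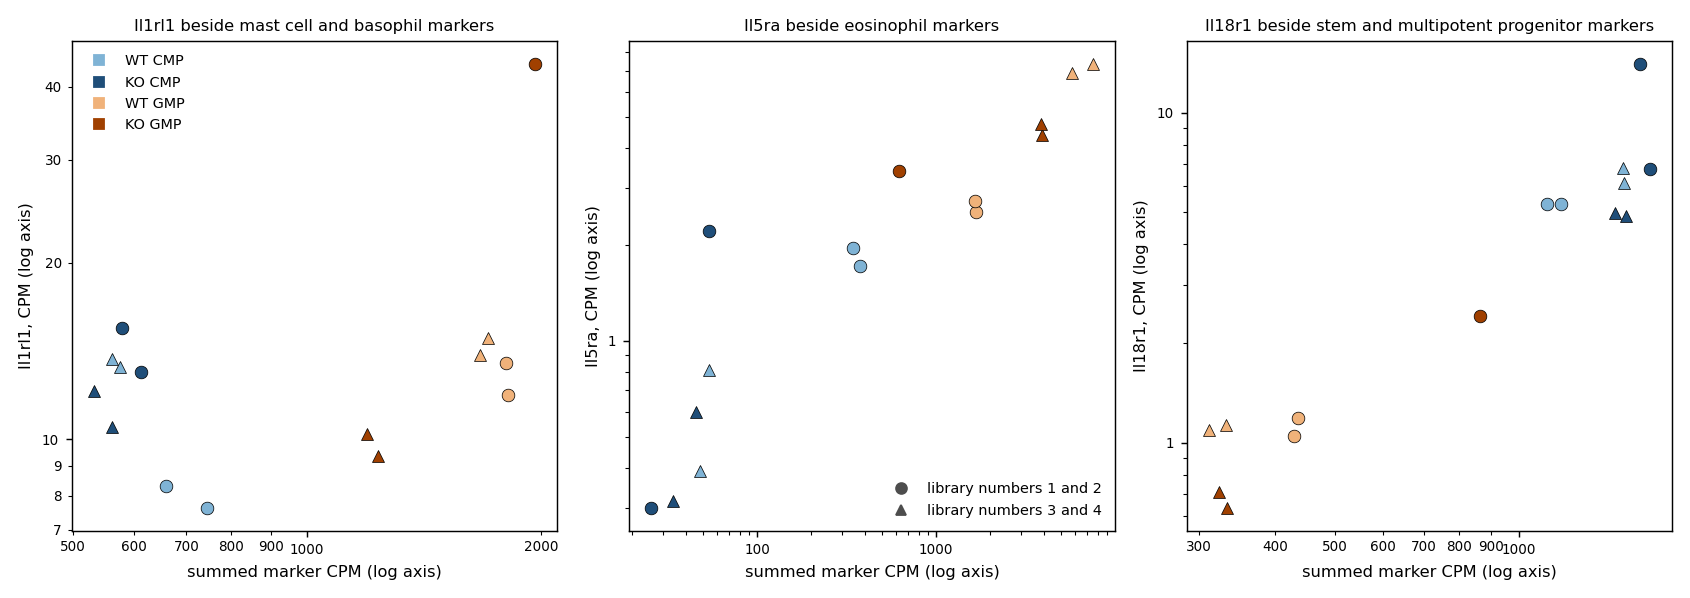
Levels of 3 members (CPM, log axis) beside the summed CPM of a marker list (log axis) in each library; colours are groups, circles numbers 1 and 2, triangles numbers 3 and 4. KO GMP library 1 lies above all other libraries for Il1rl1 (43.8 CPM), and Il5ra is highest where eosinophil markers are highest (WT GMP libraries 3 and 4).

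Of 22 partner and related receptor chains, 10 were called lower and 5 higher in WT GMP than in WT CMP, with a median log2 change of -0.47. In KO the counts were 9 and 4. For these and the next lists, 11.3% of all tested genes were called higher and 14.2% lower in WT, and 10.7% and 10.5% in KO. Flt3, the FLT3 ligand receptor of early progenitors, went from 313 ± 93.0 CPM (n = 4) in WT CMP to 39.0 ± 3.61 CPM (n = 4) in WT GMP (-3.0 ± 0.33, adjusted p = 9.9e-05). Il7r, the IL-7 receptor of lymphoid progenitors, changed by -4.52 ± 0.59 (adjusted p = 0.000232) and Lifr by -2.85 ± 0.41 (adjusted p = 0.000413). In KO, Ifngr1, the interferon gamma receptor, rose by 1.73 ± 0.23 (adjusted p = 0.000535) and Tnfrsf1b, a TNF receptor, by 1.10 ± 0.17 (adjusted p = 0.000917).

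Downstream of the receptors, feedback inhibitors were called in 1 direction. Of 17 feedback inhibitors and phosphatases, 0 were called higher and 7 lower in WT GMP, and 0 and 6 in KO. Cish, which is induced by STAT5, went from 6.01 ± 0.995 to 1.75 ± 0.230 CPM in WT (-1.78 ± 0.20, adjusted p = 0.000121), and Socs3 from 38 ± 8.94 to 4.39 ± 0.600 CPM (-3.11 ± 0.42, adjusted p = 0.000284; n = 4 in each group). The median of the list was -0.08. Of 11 JAK kinases and STAT factors, 0 were called higher and 2 lower in WT, Jak3 (-0.98 ± 0.18, adjusted p = 0.00207) and Stat5b (-0.33 ± 0.09, adjusted p = 0.0144). In KO, 1 was higher, Tyk2 (0.34 ± 0.11, adjusted p = 0.0367), and 2 lower. Of 15 survival and early response genes that cytokines induce, 2 were called higher and 6 lower in WT, among them the survival factor Bcl2 (-1.13 ± 0.12, adjusted p = 9.67e-05) and the kinase Pim2 (-1.32 ± 0.18, adjusted p = 0.000293); in KO the counts were 2 and 4.

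Of 10 adaptors used by Il1rl1 and Il18r1, 1 was called in WT, Irak3, an inhibitory kinase homologue (0.67 ± 0.21, adjusted p = 0.0296), and 2 in KO, Irak4 (0.50 ± 0.12, adjusted p = 0.00753) and Irak3 (0.89 ± 0.22, adjusted p = 0.0109). Of 11 listed ligands 10 were tested, and 2 were higher and 1 lower in each genotype. In WT these were Csf1 (1.06 ± 0.17, adjusted p = 0.000741), Il6 (1.69 ± 0.33, adjusted p = 0.00272, from 0.701 to 2.27 mean CPM) and Il18 (-1.75 ± 0.42, adjusted p = 0.00870). Of 14 myeloid transcription factors 6 were called higher and 3 lower in each genotype, among them Cebpb (0.98 ± 0.23, adjusted p = 0.00832) and Gata1 (-1.27 ± 0.32, adjusted p = 0.00993) in WT.

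KO against WT over all libraries gave no call in any of these 7 lists in either cell type by edgeR. In numbers 1 and 2 it did, where 8.23% of all genes were called higher and 10.2% lower in CMP. There 4 of 17 feedback inhibitors were called higher and 0 lower, among them Dok2 (1.57 ± 0.12, adjusted p = 2.9e-06) and Socs3 (0.80 ± 0.15, adjusted p = 0.00311). The median of that list was -0.15, opposite in sign to the calls. Of the transcription factors, 8 of 14 were called lower and 4 higher. Gfi1 changed by -1.87 ± 0.08 (adjusted p = 3.95e-08) and Cebpe by -3.05 ± 0.22 (adjusted p = 1.45e-06); both act in granulocyte development. Of the partner chains 6 were higher and 7 lower, among them Csf1r, the M-CSF receptor (-2.07 ± 0.14, adjusted p = 9.38e-07).

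In GMP numbers 1 and 2, where KO is library 1 alone and 11% of all genes were called higher and 9% lower, 8 of 22 partner chains were called higher and 6 lower. Among those higher were the IL-1 receptor Il1r1 (2.33 ± 0.13, adjusted p = 4e-07) and Il2rg (1.08 ± 0.10, adjusted p = 1.39e-05). The transcription factor Gata2, which acts in mast cell and stem cell programmes, was higher (1.45 ± 0.12, adjusted p = 9.76e-06). Of the 11 JAK kinases and STAT factors 4 were called higher and 0 lower, with Jak3 at 0.92 ± 0.11 (adjusted p = 0.000145) and Stat5a at 0.54 ± 0.09 (adjusted p = 0.00162). In numbers 3 and 4 none of the 7 lists held a call in either cell type by edgeR.

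Genes with the most similar pattern to each member were ranked by the root mean square difference of centred log2 CPM over the 15 libraries. For Csf2ra they were Slc24a6 (0.183 log2 units), Adssl1 (0.187) and Dok3 (0.188), where the member's own spread was 0.705. Csf3r, with a spread of 0.25, was followed to within 0.056 by Rffl, and Il4ra, with 0.227, to within 0.105 by Ifnar2. Il1rl1, with 0.542, had no gene closer than Trpm2 (0.25), and Il5ra, with 1.087, none closer than Shroom2 (0.385). Il18r1, with 1.133, had Sdc4 at 0.187. The nearest genes of Csf2rb, Csf2rb2, Il3ra and Il6ra were Plk1 (0.166), Hpn (0.229), Mrpl4 (0.111) and Zfp516 (0.197). Without the 3 libraries that stood apart, 4 of the 30 genes named as the 3 nearest of each member were still among them: Dok3 for Csf2ra, Mrpl4 for Il3ra, Shroom2 for Il5ra and Kbtbd11 for Il18r1. Between members, Csf2rb and Csf3r were the closest pair, at 0.258, and Il5ra and Il18r1 the farthest apart, at 2.069.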

How the data were processed

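Library preparation used a SMARTER mRNA-Seq kit, per the labels' protocols, and HISAT aligned the reads to mm10, per the submitters' processing notes. For the counting tool, its strand setting and its annotation, the sources used here give nothing. The deposited value per gene symbol is an expected count. Multiples of 4 made up 38% of the 40915 values from 1 to 40, where an even spread gives 25%. From this, 1 fragment was taken as about 4 units, which is an assumption because the unit is not given. No pair of libraries was identical.

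From these values, rounded to whole numbers, R 4.3.3 with edgeR 4.0.16 gave CPM (TMM scaling), log2 fold changes with standard errors (SE) and two-sided quasi-likelihood tests with Benjamini-Hochberg adjustment over 15181 genes kept by filterByExpr (threshold 0.05). All 15 libraries entered each fit: 4 groups with 11 residual degrees of freedom, or 8 sets split by group and number with 7. Adjusted p-values are edgeR's unless DESeq2 (1.42.0) is named. Tests were checked on simulated data. Levels between genes were divided by the exon length in GENCODE M21 on GRCm38. Coding sequences were aligned with Biopython 1.88.

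The main fits did not pair libraries, and only the block alternative took library numbers to pair KO and WT libraries. Deviations from the group mean of same-numbered pairs correlated at 0.13 to 0.35 in all 7 pairs. Other pairs ran from -0.34 to 0.27, so these ranges overlapped. KO CMP library 3 correlated at 0.27 with WT CMP library 4 and at 0.18 with WT CMP library 3. The labels do not explain the numbers, so pairing by number is not established. Named genes are all 10 members, up to 4 genes of each list by smallest p in the contrast described, and the nearest genes by pattern; 1 listed gene that this rule names is not reported here. Members, lists, markers, motifs and number sets were chosen with earlier results of these data known. Alternatives were RLE scaling, DESeq2, no filter, values divided by 4, the library number as a block, and the beta chains summed. Each library, or the 3 that stood apart, was also left out. KO GMP library 2 is not analysed here.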

Additional observations from a re-analysis of the deposited data

Results flagged for a closer look

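Of 30 sets of 4 libraries (10 members in 3 groups), 1 held a library whose gap to the next exceeded Dixon's critical value on the CPM scale, and 0 did on the log2 CPM scale. This was Il5ra in KO CMP, where library 2, at 2.20 CPM against 0.299 to 0.599, lay apart by 0.842 of the group's range. Chance alone flags about 1 set in 20. KO GMP, with 3 libraries, was not tested in this way. In 5 cases the KO effect of a member differed between library numbers 1 and 2 and numbers 3 and 4 by a test of the difference in edgeR. In CMP this was Il1rl1, by 1.09 log2 units, higher in both KO libraries of numbers 1 and 2 and lower in both of numbers 3 and 4 than in the WT libraries of the same set. In GMP it was Il1rl1 by 2.35, Csf2rb2 by 1.67, Csf2rb by 0.78 and Il18r1 by 1.84, all resting on KO GMP library 1 for numbers 1 and 2. That library also held mast cell genes such as Cma1 at 38 CPM and Xist at 123 CPM. Genotype and whatever else sets these 3 KO libraries apart cannot be told apart.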

How the results depend on the processing

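Calls of members from CMP to GMP were the same in number with DESeq2, RLE scaling and the replicate block (4 higher and 1 lower in each genotype), and the block changed no member's call. Under the block, in which libraries are paired by number, the KO effect on Csf3r in GMP was 0.00 against -0.00 without it. Members called lower in WT were 2 without the 3 libraries that stood apart and within numbers 3 and 4, where Il4ra joined Il18r1; the step within number sets was added after the data were seen. Directions of uncalled values turned as follows. The WT step of Csf2rb2 was 0.17 within numbers 1 and 2, and that of Il3ra -0.03 within numbers 3 and 4. The KO step of Csf2rb2 was -0.16, of Il3ra -0.10 and of Il1rl1 -0.21, both without the 3 libraries and within numbers 3 and 4. Without the 3 libraries the KO effect in CMP was 0.21 for Il3ra and -0.27 for Il18r1, and in GMP 0.11 for Csf2ra, -0.14 for Csf2rb2, 0.10 for Csf3r, -0.47 for Il1rl1 and -0.73 for Il18r1.

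Members called lower by DESeq2 were 2 for KO against WT in CMP, 2 in CMP numbers 3 and 4 and 1 in GMP numbers 3 and 4. Between number sets DESeq2 called 3 higher and 2 lower for the KO effect in CMP, 1 lower in GMP, and 2 higher within WT CMP; RLE scaling called 3 higher in CMP, and no filter 2 higher and 2 lower. The cause was not tested. Over all genes DESeq2 called 368 for KO against WT in CMP, 60 in GMP, 3 for the difference between them, 135 in CMP numbers 3 and 4 and 42 in GMP numbers 3 and 4, where edgeR called 0, 0, 0, 1 and 2. It called 2050 between WT GMP number sets, where edgeR called 1307. Without the filter these numbers 3 and 4 calls were 4 in CMP and 12 in GMP, and without the 3 libraries 1 gene was called in CMP and 1 for the difference.

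With each library left out in turn, members called higher in WT GMP ran from 1 to 4. Ranges of values that turned sign were -0.29 to 0.09 for the WT step of Csf2rb2, and for the KO step -0.11 to 0.07 in Il4ra and -0.38 to 1.10 in Il1rl1. For the KO effect in CMP they were -0.16 to 0.11 in Il3ra and -0.09 to 0.54 in Il18r1. In GMP they were -0.28 to 0.11 in Csf2ra, -0.14 to 0.55 in Csf2rb2, -0.07 to 0.10 in Csf3r, -0.08 to 0.07 in Il3ra, -0.43 to 0.06 in Il5ra, -0.47 to 1.02 in Il1rl1 and -0.73 to 0.52 in Il18r1. Counts of members called ran from 1 to 2 higher in CMP numbers 1 and 2, 0 to 1 lower in CMP numbers 3 and 4, and 1 to 3 lower in GMP numbers 1 and 2. Between sets they ran from 1 to 2 higher and 0 to 3 lower for the KO effect in CMP, 0 to 1 lower in GMP, 0 to 2 higher and 2 to 4 lower within WT CMP, and 1 to 4 lower within WT GMP. Over all genes, the number called by edgeR moved by over 1.5 times as follows. The WT step went from 3872 to 2430 without WT CMP library 3, and the KO step from 3225 to 1656 and 1763 without KO GMP library 3 or 4. KO against WT in CMP went from 0 to 50 without WT CMP library 4 and to 1 without KO CMP library 1, and the difference between cell types went from 0 to 1 without the latter. In GMP numbers 1 and 2 the KO effect went from 3033 to 1968 without WT GMP library 1. The KO effect between sets went from 1160 to 743 in CMP without KO CMP library 4, and from 1614 to 1018 and 1015 in GMP without KO GMP library 4 or WT GMP library 3. WT CMP sets went from 3479 to 1510 and 1503 without WT CMP library 2 or 4, and WT GMP sets from 1307 to 625, 429, 549 and 410 without WT GMP libraries 1 to 4. In numbers 3 and 4 the counts rose to 46 and 42 in CMP and 28 and 28 in GMP without KO CMP library 1 or 2, and were at most 6 without any other library. Il5ra and Il18r1 are limited by depth, at 22 to 727 and 49 to 1135 units.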
